A study of Bos taurus with 6 samples.

Results

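bta-miR-143 and bta-miR-145 are the mature products of neighbouring miRNA genes, a pair best known from smooth muscle and other mesenchymal cells. Both were found by exact name among the 1030 mature miRNAs listed for each liver library, so the results concern 2 of 1030 miRNAs. Each had 1 precursor in the files, and the largest count over precursor rows was therefore the only count. Both had a count above 2 in all 6 libraries and were among the 456 miRNAs tested.

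The libraries came from the liver of Wye Angus steers of a closed herd, 3 animals per diet and 1 library per animal. The grass-fed group was raised after weaning mainly on alfalfa, hay or pasture and was 21 months old. The grain-fed group received mainly corn silage, shelled corn, soybean and minerals and was 14 months old. Both groups were sampled at market weight. Diet and age differed between the same animals and cannot be told apart. Values of single animals are given in the order of replicates 1, 2 and 3.

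In mammals miR-143 and miR-145 are processed from a shared primary transcript that is strongly expressed in smooth muscle, where the pair is known for promoting the contractile state through targets such as KLF4, KLF5 and ELK1. In liver, such expression is attributed mainly to vessel walls, myofibroblasts and other stromal cells, and miR-143 has also been linked in obese mice to insulin signalling through ORP8. RefSeq's annotation of ARS-UCD2.0, a later assembly than the ARS-UCD1.2 used for the deposited files, places MIR143 and MIR145 on chromosome 7. There both lie inside the span of the lncRNA LOC132345768. The protein-coding genes within 50 kb of either were PCYOX1L, IL17B and CSNK1A1, and no other miRNA gene was within that distance. Only 1 mature arm was listed for each precursor, so the opposite arms were not analysed here.

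Totals of miRNA counts differed in the same way as the diets did. They were 3824592 to 6133960 in grass-fed and 464875 to 892929 in grain-fed libraries. The paper reports similar totals of raw reads for both diets, so these totals are not a measure of sequencing depth. Their difference cannot be told apart from diet or age, and its cause was not tested. Levels are CPM, the count relative to a library size that had been adjusted by the TMM method of edgeR, whose factors were 0.692 to 0.996 in grass-fed and 1.11 to 1.21 in grain-fed libraries. The hepatocyte miRNA bta-miR-122 had the highest mean level of all miRNAs. Among the miRNAs of striated muscle, bta-miR-208a and bta-miR-208b had 0 counts in all 6 libraries, and the 4 tested members of that list summed to 327 to 558 CPM in grass-fed and 201 to 363 CPM in grain-fed libraries.

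bta-miR-143 was a dominant liver miRNA in both diets and bta-miR-145 a much less abundant one. bta-miR-143 took 9.07%, 7.26% and 7.15% of the miRNA counts in the grass-fed animals and 9.26%, 7.66% and 8.23% in the grain-fed animals. The 2 ranges of shares overlapped, although grass-fed replicates 2 and 3 lay below every grain-fed animal. bta-miR-145 took 0.247%, 0.198% and 0.184% of the counts in the grass-fed animals and 0.151%, 0.129% and 0.119% in the grain-fed animals. Here the lowest grass-fed share was above the highest grain-fed share. Wilson 95% intervals, which cover counting error only, were from 0.180% to 0.188% for that lowest grass-fed share and from 0.143% to 0.159% for that highest grain-fed share.

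By mean CPM over the 6 libraries bta-miR-143 ranked 3 and bta-miR-145 ranked 36 of the 456 tested miRNAs. A read covers a whole mature miRNA, so levels of different miRNAs were compared without scaling for length, although ligation and amplification can differ between sequences. bta-miR-148a, the next miRNA above bta-miR-143, was higher than it in 6 of 6 libraries. bta-miR-26a, the next below, exceeded it in 1 of 6 libraries. bta-miR-145 stood between bta-miR-125b, which was higher in 4 of 6 libraries, and bta-miR-24-3p, which was also higher in 4 of 6, and was not separated from either. Within single libraries bta-miR-143 ranked 3 in all but grain-fed replicate 2, where it ranked 4. bta-miR-145 ranked 30 to 34 in grass-fed and 45 to 53 in grain-fed libraries.

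The first question was whether each miRNA differed between the diets. bta-miR-145 was higher in grass-fed liver, and bta-miR-143 did not pass the test. bta-miR-145 had 2644, 2866 and 1847 CPM in the grass-fed animals and 1309, 1160 and 981 CPM in the grain-fed animals. All 3 grass-fed animals were above all 3 grain-fed animals. The means were 2452 ± 536 and 1150 ± 164 CPM (SD, n = 3 each), and the fold change was 1.09 on the log2 scale (standard error 0.23, 95% interval 0.59 to 1.59). FDR was 0.00599 in edgeR's quasi-likelihood test after adjustment by the Benjamini-Hochberg method over every tested miRNA. At FDR 0.1, 19.1% of the tested miRNAs passed in either direction and 9.43% passed as higher and 9.65% as lower in grass-fed liver. The CPM ranges of the diets did not overlap for 32.9% of the tested miRNAs, or for 19.7% with grass-fed above grain-fed. In bulk tissue, more cells of a type and more of a miRNA per cell cannot be told apart.

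bta-miR-143 had 96913, 104894 and 71768 CPM in the grass-fed animals. In the grain-fed animals it had 80582, 68856 and 67845 CPM. The groups overlapped, because grass-fed replicate 3 was below grain-fed replicate 1. The means were 91192 ± 17288 and 72428 ± 7080 CPM (SD, n = 3 each). The log2 fold change was 0.33 (standard error 0.18, 95% interval -0.065 to 0.73, FDR = 0.271, edgeR). This interval holds a small decrease as well as an increase.

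**Figure D1:**
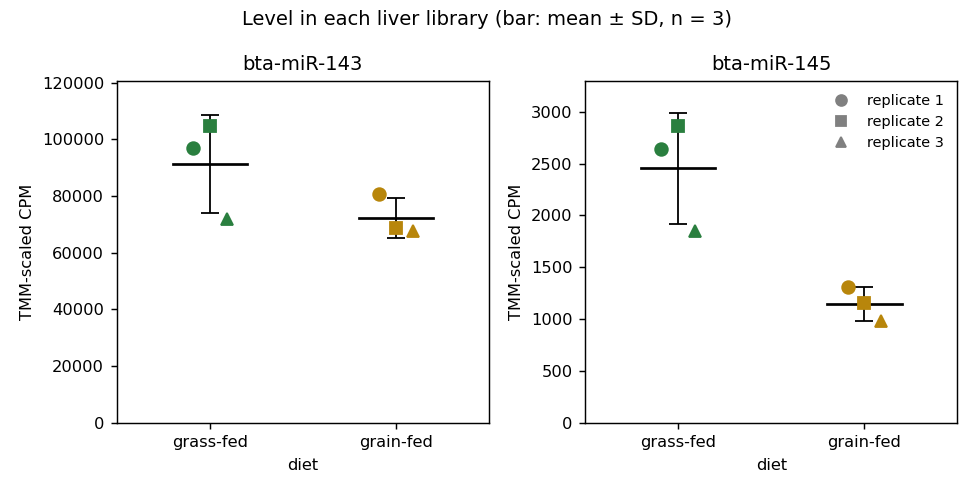
TMM-scaled CPM of bta-miR-143 (left) and bta-miR-145 (right) in each liver library, by diet. Each marker is 1 animal, its shape gives the replicate number, and the bars give the mean ± SD of 3 libraries. The 3 grass-fed values of bta-miR-145 (1847 to 2866) lie above the 3 grain-fed values (981 to 1309), whereas those of bta-miR-143 overlap.

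Among all tested miRNAs the log2 fold change of bta-miR-145 was the 60th highest and that of bta-miR-143 the 188th. The miRNAs above bta-miR-145 included some with fewer than 10 counts in a library. Among the 202 miRNAs with at least 10 counts in every library, bta-miR-145 ranked 13 and bta-miR-143 ranked 73.

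**Figure D2:**
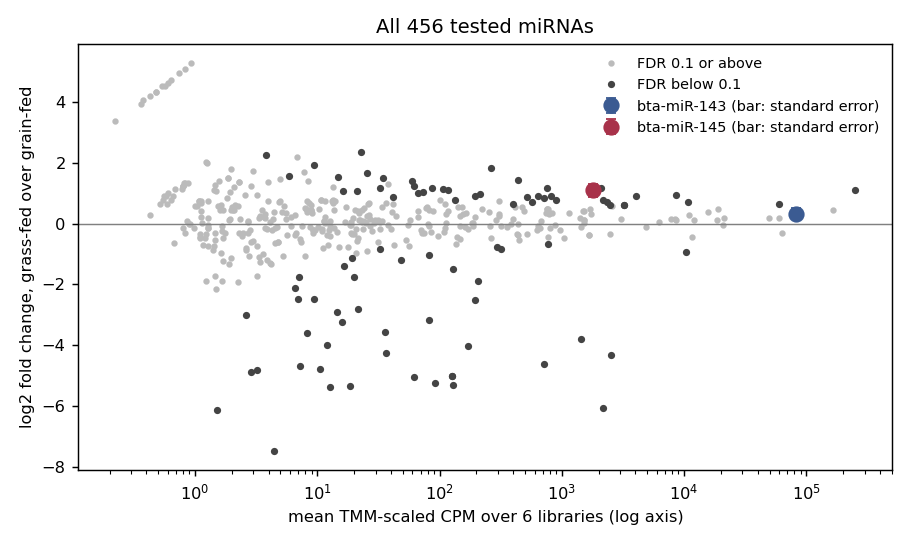
Log2 fold change between grass-fed and grain-fed liver against the mean TMM-scaled CPM over 6 libraries (log axis) for all 456 tested miRNAs. Dark points have FDR below 0.1 in edgeR, the coloured points are bta-miR-143 and bta-miR-145, and their bars are standard errors. bta-miR-145 (1.09) lies near the upper edge of the miRNAs of like abundance, and bta-miR-143 (0.33) lies among the most abundant miRNAs and close to 0.

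Scaling moved the fold changes of all miRNAs together. Over all tested miRNAs the median change on the log2 scale was 0.13 with TMM, -0.29 with total counts alone and 0.31 with upper-quartile normalization. With the same 3 scalings the share of passing miRNAs that were lower in grass-fed liver was 50.6%, 87.8% and 33.9%. The log2 fold change of bta-miR-143 was -0.10 with total counts alone (FDR = 0.733, edgeR) and 0.50 with upper-quartile normalization (FDR = 0.0341, edgeR), so neither its direction nor its call was fixed. Relative to the median of all miRNAs it was 0.20, 0.19 and 0.19 with TMM, total counts and upper-quartile normalization. bta-miR-145 was 0.66 with total counts alone (FDR = 0.0648, edgeR) and 1.26 with upper-quartile normalization (FDR = 0.00283, edgeR). Relative to the median it was 0.96, 0.95 and 0.94 in the same order. It passed FDR 0.1 in the main setting and under all 23 alternatives tried, which included each library left out in turn and 1 scaling added after the data had been seen.

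**Figure D3:**
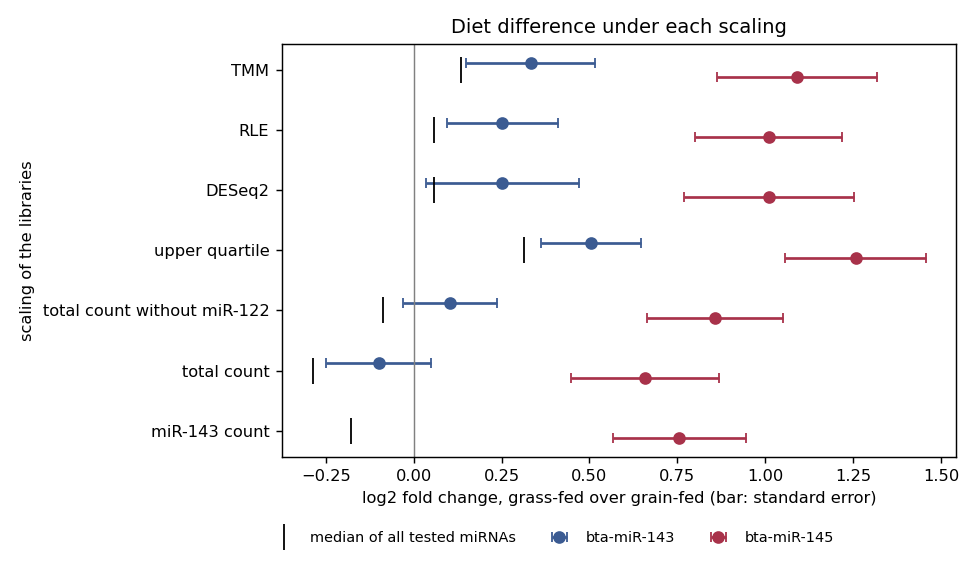
Log2 fold change of bta-miR-143 and bta-miR-145 between grass-fed and grain-fed liver under 7 ways of scaling the libraries, with standard errors as bars and the median of all tested miRNAs as a black tick. DESeq2 is a different test as well as a scaling, and with libraries scaled to their bta-miR-143 count that miRNA is fixed and not drawn. bta-miR-145 stays above 0 throughout (0.66 to 1.26), and bta-miR-143 runs from -0.10 to 0.50.

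The next question was whether the pair changed together. The ratio of their counts within a library does not depend on scaling. bta-miR-143 had 36.7, 36.6 and 38.9 times as many counts as bta-miR-145 in the grass-fed animals. In the grain-fed animals it had 61.6, 59.4 and 69.2 times as many. The ranges were far apart, and the ratio varied little between animals of a diet. Its coefficient of variation was 3.43% in grass-fed and 8.10% in grain-fed liver, against 19.0% and 9.77% for the CPM of bta-miR-143 and 21.8% and 14.3% for that of bta-miR-145. The CPM also carries the TMM scaling, which cancels in the ratio. In grain-fed liver the coefficient of the ratio was close to that of bta-miR-143. The mean ratio was 37.4 ± 1.28 in grass-fed and 63.4 ± 5.13 in grain-fed liver (SD, n = 3 each), a log2 difference of -0.76 (standard error 0.072), or 1.69 times higher in grain-fed liver. A two-sided exact permutation test gave p = 0.1, the smallest value possible with 3 animals against 3 (0.167 after Benjamini-Hochberg adjustment over the 5 ratios compared), so this test could not reach 0.05.

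Put as a share, bta-miR-145 made up 2.66%, 2.66% and 2.51% of the counts of the pair in the grass-fed animals and 1.60%, 1.66% and 1.43% in the grain-fed animals. The Wilson 95% interval of the lowest grass-fed share was 2.45% to 2.57%, and that of the highest grain-fed share was 1.55% to 1.77%. These intervals cover counting error only and treat reads as independent molecules. Separation of this kind was common in these data. Of the 201 other miRNAs with at least 10 counts in every library, 36.3% had a ratio to bta-miR-143 whose ranges did not overlap between the diets, and 10.9% had one that was higher in grass-fed liver, as bta-miR-145 did. Set against bta-miR-145 in the same way, 75.6% of the 201 had ranges apart. Of the 201, 0 had ranges apart with the ratio higher in grass-fed liver.

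Scaling each library to its bta-miR-143 count, which was added after the data had been seen, gave a log2 fold change of 0.76 for bta-miR-145. This restates the ratio of the pair and is no second test of it.

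The pair was also set against a hepatocyte miRNA and a miRNA known from stellate cells. bta-miR-122, a highly expressed hepatocyte miRNA that acts in lipid metabolism, was itself higher in grass-fed liver (log2 fold change 1.12, FDR = 0.00417, edgeR). The ratio of bta-miR-143 to bta-miR-122 was 0.345, 0.229 and 0.241 in the grass-fed animals and 0.502, 0.354 and 0.552 in the grain-fed animals. All grass-fed values were below all grain-fed values, although grass-fed replicate 1 and grain-fed replicate 2 nearly met. The log2 difference was -0.79 (standard error 0.27, exact permutation p = 0.1, adjusted 0.167). The ratio of bta-miR-145 to bta-miR-122 was 0.00730 ± 0.00184 in grass-fed and 0.00737 ± 0.00122 in grain-fed liver (SD, n = 3 each), a log2 difference of -0.028 (standard error 0.25, exact permutation p = 1.0). These ranges overlapped, and the standard error leaves room for a difference in either direction.

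bta-miR-199a-3p is known from hepatic stellate cells and fibroblasts, and which cells it came from in these livers was not tested. There were 25.8, 22.6 and 21.3 counts of bta-miR-143 for each count of bta-miR-199a-3p in the grass-fed animals and 30.9, 29.7 and 24.9 in the grain-fed animals. The ranges overlapped, with a log2 difference of -0.29 (standard error 0.13, exact permutation p = 0.2, adjusted 0.25). For bta-miR-145 the ratio was 0.704, 0.618 and 0.547 in the grass-fed animals and 0.503, 0.500 and 0.360 in the grain-fed animals. Every grass-fed value was above every grain-fed value, with a log2 difference of 0.47 (standard error 0.19, exact permutation p = 0.1, adjusted 0.167).

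**Figure D4:**
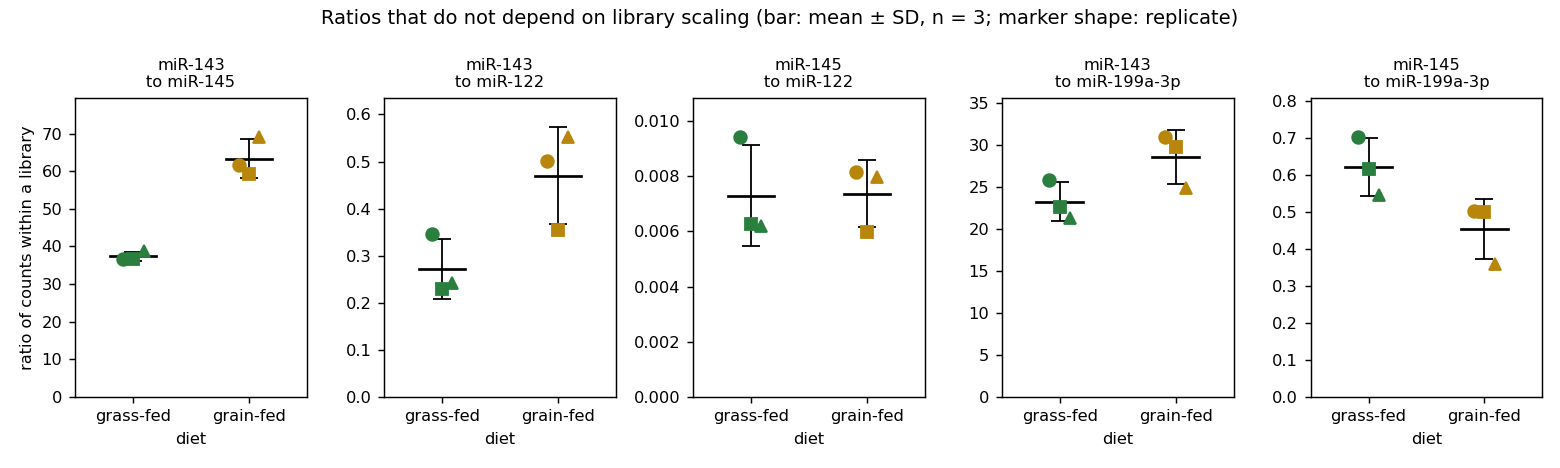
Ratios of counts within each library for the 5 pairs of miRNAs compared, by diet, with each axis starting at 0. Markers are animals, marker shape gives the replicate number, and bars give the mean ± SD of 3 libraries. The ratio of bta-miR-143 to bta-miR-145 falls between 36.6 and 38.9 in grass-fed and between 59.4 and 69.2 in grain-fed liver, and the ratio of bta-miR-145 to bta-miR-122 overlaps between the diets.

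The remaining miRNAs of the mesenchymal list were described beside the pair. The list was written from general knowledge with earlier results of these data known, and it holds 11 miRNAs of stellate cells, fibroblasts and smooth muscle, all of which were tested. Of these, 4 passed FDR 0.1 as higher in grass-fed liver, 0 passed as lower (edgeR), and 7 did not pass, beside 9.43% higher and 9.65% lower of all tested miRNAs. With an unadjusted p below 0.05 the numbers were also 4 and 0, where 13.2% of all tested miRNAs were higher and 12.1% lower. They were the same at FDR 0.1 with DESeq2 (8.99% higher and 11.0% lower of all), the exact test of edgeR (9.87% and 9.43%) and limma-voom (9.87% and 10.7%). The median log2 fold change of the 11 was 0.27, beside 0.13 for all tested miRNAs. The 4 were bta-miR-125b, bta-miR-199a-3p, bta-miR-199a-5p and bta-miR-199c. bta-miR-199c had counts within 1 of those of bta-miR-199a-3p in every library, so the reads of these 2 cannot be told apart. bta-miR-125b, which is widespread in mesenchymal cells, had 2893 ± 89.8 CPM with grass and 1288 ± 349 CPM with grain feeding (SD, n = 3 each), which is 1.17 on the log2 scale (standard error 0.22) with FDR = 0.00329 in edgeR. bta-miR-199a-3p had 3924 ± 646 and 2550 ± 211 CPM (SD, n = 3 each), or 0.62 on the log2 scale (FDR = 0.0533, edgeR). bta-miR-199a-5p had 2999 ± 338 and 1968 ± 116 CPM (SD, n = 3 each), with 0.61 (FDR = 0.0517, edgeR). Both are listed for the bta-mir-199a precursors, and bta-miR-199a-3p is also listed for bta-mir-199b, the precursor of bta-miR-199b. Only bta-miR-125b still passed with total counts alone, or when grass-fed replicate 1, grain-fed replicate 1 or grain-fed replicate 2 was left out, each of which reduced the count from 4 to 1. With upper-quartile normalization 6 of the 11 passed as higher, as bta-miR-199b and bta-miR-99a-5p were added.

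The 7 that did not pass had log2 fold changes from -0.064 to 0.33. bta-miR-100 and bta-miR-99a-5p were the most abundant of them, with log2 fold changes of 0.12 (FDR = 0.752, edgeR) and 0.27 (FDR = 0.442, edgeR). bta-miR-214, a stellate cell miRNA, had 115 ± 18.7 and 113 ± 5.86 CPM (SD, n = 3 each), with 0.028 (FDR = 0.947, edgeR). bta-miR-195 and bta-miR-497, themselves products of a shared transcript in mammals, had -0.064 and -0.027. bta-miR-199b had 0.33 (FDR = 0.391, edgeR). bta-miR-10b had a spread between animals close to its mean, with 333 ± 332 CPM in grass-fed and 285 ± 208 CPM in the grain-fed group (SD, n = 3 each). Of the 11, only bta-miR-125b had a log2 fold change near that of bta-miR-145, and the next highest were 0.62, 0.62 and 0.61.

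**Figure D5:**
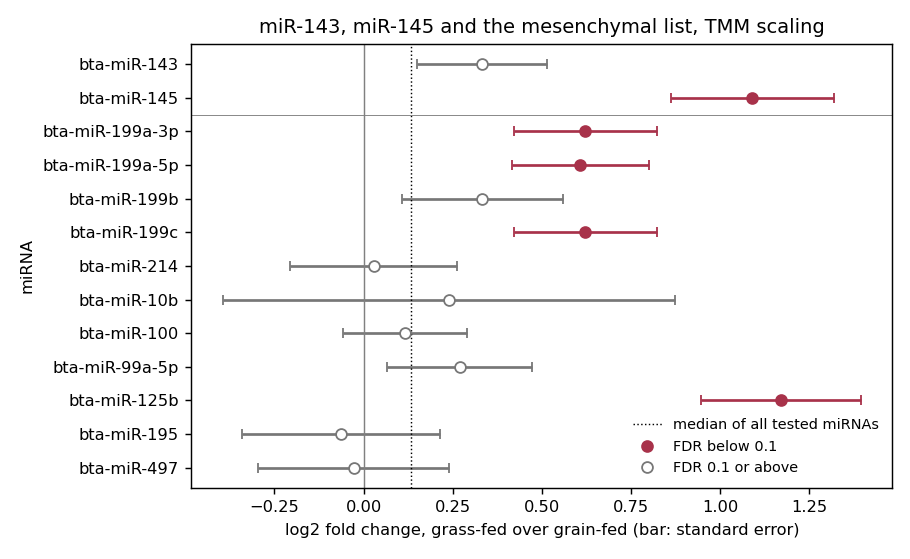
Log2 fold change between grass-fed and grain-fed liver, with standard error, of bta-miR-143, bta-miR-145 and the 11 other miRNAs of the mesenchymal list after TMM scaling. Filled points have FDR below 0.1 in edgeR and the dotted line is the median of all tested miRNAs (0.13). bta-miR-145 (1.09) and bta-miR-125b (1.17) have the largest values, and bta-miR-214, bta-miR-195 and bta-miR-497 lie near 0.

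Markers of other cell types in liver were given as levels, and their part in the results above was not tested. Of all tested miRNAs, 9.43% passed as higher and 9.65% as lower in edgeR. At an unadjusted p below 0.05 in edgeR, 13.2% were higher and 12.1% lower. The endothelial arms bta-miR-126-3p and bta-miR-126-5p summed to 11449 to 16152 CPM in grass-fed and 9476 to 14335 CPM in grain-fed libraries. In edgeR 0 of 2 passed, as with an unadjusted p below 0.05 and with DESeq2, the exact test and limma-voom. The 3 hepatocyte miRNAs summed to 364031 to 545892 CPM in grass-fed and 191672 to 253900 CPM in grain-fed libraries, a sum carried mostly by bta-miR-122. bta-miR-122 and bta-miR-192 passed as higher, whereas bta-miR-194 was at 9811 ± 2765 CPM with grass and 13211 ± 2980 CPM with grain feeding (SD, n = 3 each), which is -0.43 on the log2 scale (FDR = 0.300, edgeR). Of the striated muscle list 4 of 7 were tested and 1 passed as higher, bta-miR-499 (FDR = 0.0862, edgeR). bta-miR-499 had 7, 3 and 7 counts in the grain-fed animals, and its CPM ranges overlapped between the diets. Of 5 leukocyte miRNAs 0 passed in edgeR, the exact test and limma-voom and 1 passed as lower with DESeq2. At an unadjusted p below 0.05, 3 were lower in edgeR, and fewer in the exact test and limma-voom. bta-miR-142-5p, the most abundant of the 5, had a log2 fold change of -0.13, and bta-miR-155 went the other way with 0.40. Of all tested miRNAs, 11.0% passed as lower with DESeq2 and 12.1% were lower at that unadjusted p in edgeR. Of 3 erythroid miRNAs 0 passed with any of these tools or at an unadjusted p below 0.05. These lists had sums of 743 to 993 and 419 to 643 CPM in grass-fed and 943 to 1132 and 465 to 665 CPM in grain-fed libraries. Of 5 miRNAs of biliary epithelium, bta-miR-200b passed as higher and bta-miR-141 as lower, and the list summed to 599 to 880 CPM in grass-fed and 442 to 704 CPM in grain-fed libraries.

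Likeness of profile was measured as the root mean square difference of log2 CPM over the 6 libraries after each miRNA's mean had been subtracted, among miRNAs with at least 10 counts in every library. All profiles share the libraries and their TMM factors, so the values are descriptive. The members of the pair were not each other's closest match. Their difference was 0.39, which placed bta-miR-145 at position 107 of 201 from bta-miR-143, and bta-miR-143 at position 41 of 201 from bta-miR-145. It measures the spread of the pair's log2 ratio over the libraries, so it restates that ratio and is no second test of it. The medians over all 201 were 0.37 and 0.58. The profiles closest to bta-miR-143 were those of bta-miR-486, bta-miR-30e-5p and bta-miR-378c, with differences of 0.11, 0.12 and 0.14. The profiles closest to bta-miR-145 were those of bta-miR-660, bta-miR-450a and bta-let-7a-3p, with 0.16, 0.18 and 0.19. The choice used all 6 libraries, so the difference of these miRNAs between the diets was largely set by it and was not counted as a result. In TMM-scaled CPM the 3 animals of each diet fell in the same order for both members, with replicates 2 and 3 the highest and lowest in grass-fed and replicates 1 and 3 in grain-fed liver. In shares of counts the order differed, since replicate 1 was highest in both diets and grain-fed replicate 2 had the lowest share of bta-miR-143 but replicate 3 that of bta-miR-145.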

How the data were processed

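Small RNA of 6 livers was sequenced, 1 library per animal. Adapters, low-quality reads and reads outside a length range had been discarded by the authors, who used FastQC 0.11.5 for quality control, mapped the remaining reads to ARS-UCD1.2 and counted known miRBase miRNAs with miRDeep2. How the aligner was set and which miRDeep2 was run is not given in the sources used here. Raw counts were deposited per pair of mature miRNA and precursor. The deposited CPM divides these by the library total over all pairs and was not used. For each mature miRNA the largest count over its precursors was taken. To be tested, a miRNA needed more than 2 counts in 2 or more libraries, as in the study, and the test was that of edgeR 4.0.16 (TMM, quasi-likelihood, R 4.3.3) and Benjamini-Hochberg adjustment at FDR 0.1, after checks on simulated data. DESeq2 1.42.0, limma 3.58.1 (voom), other scalings and filters, both other treatments of precursors, FDR 0.05, a replicate block and each library left out were alternatives. Ratios were compared by exact permutation with scipy 1.17.1. Standard errors were derived from the fold change and its F statistic, and 95% intervals use the t distribution of the fit.

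The miRNAs named are the pair, the mesenchymal list, the 3 closest profiles to each, their neighbours in level and within 50 kb, and the 2 denominators, with marker lists for other cell types. The rule also asked for miRNAs that share bases 2 to 8, which were not analysed here. The members and lists were chosen with earlier results of these data known. A count of 0 allowed up to 0.632 to 0.787 CPM in grass-fed and 2.92 to 5.32 CPM in grain-fed libraries (3 counts, counting error only). Replicates differed by more than sampling noise.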

Additional observations from a re-analysis of the deposited data

How the results depend on the processing

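bta-miR-145 kept its direction and its call at FDR 0.1 under all 23 alternatives, with log2 fold changes of 0.66 to 1.26 and of 0.94 to 1.17 with each library left out. Not all of these alternatives were independent of the main fit. bta-miR-143 turned to -0.10 with total counts alone and was called only with upper-quartile normalization, at 0.50, among 22 alternatives, and ranged from 0.20 to 0.39 without single libraries. The number of DEmiRNAs was 87, and 49 to 86 with each library left out, the lowest without grain-fed replicate 2, and 63 to 124 under the other alternatives, the highest with upper-quartile normalization. The passing miRNAs of the mesenchymal list that were higher fell from 4 to 1 with total counts alone, total counts without bta-miR-122, FDR 0.05, the replicate block and libraries scaled to bta-miR-143, and to 1 to 4 with each library left out, but rose to 6 with upper-quartile normalization, while 0 were lower in any of the 23. The cause of these shifts was not tested. The ratio of bta-miR-143 to bta-miR-145 had log2 differences of -0.80 to -0.69 without single libraries. None of its 8 alternatives could reverse its direction. Each member has 1 precursor, a replicate block keeps the mean difference, and the ranges of the diets were apart. The log2 difference of the ratio of bta-miR-145 to bta-miR-122 lay near 0 and ran from -0.23 to 0.075. The other 3 ratios kept their direction, which leaving out a library could not change where the ranges were apart. bta-miR-145 had 553 to 1344 counts in the grain-fed libraries, which had the smaller totals of miRNA counts. The coefficient of variation of its CPM was 14.3% there and 21.8% in the grass-fed libraries. The part of these totals in its precision was not tested.

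The replicate numbers are not stated to pair animals, and deviations of same-numbered libraries correlated at -0.054, -0.20 and -0.011 across miRNAs. With the replicate number as a block the values on the log2 scale were 0.32 for bta-miR-143 (FDR = 0.386, edgeR) and 1.08 for bta-miR-145 (FDR = 0.00558, edgeR), 82 DEmiRNAs were found in all, and the paired log2 difference of the pair's ratio was -0.76 (exact p = 0.25, the smallest possible with 3 pairs).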
